A study of Oryza sativa with 51 samples.

Results

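Regions of the rice genome that carried less monoubiquitinated histone H2B (H2Bub1) in severe drought, and that were not listed under moderate drought, are described here with the RNA of their genes. They were selected on the H2Bub1 values of the authors' deposited table of severe drought against normal water, by 3 conditions. The log2 concentration in drought minus that in normal water was below 0, the annotation did not begin with exon or intron, and no base was shared with any region of the authors' deposited table of moderate drought. Of 886 regions in the severe drought table, 489 met all 3 conditions, and they belonged to 487 genes. Another 222 losses outside exons and introns shared a base with a region of the moderate drought table, whichever way that region had changed. They are called shared losses below. A further 82 losses lay in an exon or intron, and 93 regions were gains.

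The plants were wild type Zhonghua11 rice, a japonica variety, at the 4-leaf stage in soil. Normal water was compared with slowly developed moderate drought, at about 20% relative soil water, and severe drought, at about 10%. RNA and H2Bub1 were each measured in 3 samples per condition, and all 3 groups were wild type. A further comparison set plants mutant in OsbZIP46, a bZIP regulator that acts in the response to abscisic acid (ABA), against wild type plants under drought. The labels do not state whether the replicates of a condition were separate plants, and every p-value below reflects the variation among these samples alone, some or all of which may be technical.

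H2Bub1 is a histone mark that the ubiquitin ligases HUB1 and HUB2 place, usually over the transcribed part of active genes, where it accompanies the passage of RNA polymerase. It is removed again by deubiquitinating enzymes. In drought, plants accumulate ABA, which relieves the block that clade A protein phosphatases (PP2C) put on the signalling pathway, and bZIP factors then switch on protective genes. Transcription of PP2C genes is itself raised by ABA.

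The H2Bub1 values are the authors' own, with 1 value per condition and region, so no replicate error can be given for them. The members were chosen by these values, which are given as a description, with no test. Both deposited tables held only regions with an absolute log2 change of at least 1 and a false discovery rate (FDR) under 0.05. A region that is absent from the moderate drought table therefore has no known value there, and its H2Bub1 may still have been lower. The tables of both drought levels shared their normal samples: the 55 regions with the same start and end in both had the same normal concentration.

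In the authors' deposited table the log2 concentration of the 489 regions under normal water ran from 5.02 to 8.87, with a median of 7.08. In severe drought it ran from −0.31 to 7.83, with a median of 5.88. The change ran from −6.39 to −1, with a median of −1.2 and quartiles of −1.46 and −1.07. Most losses were thus close to the limit for being listed: 289 regions (59.1%) lay from −1.25 to −1, both limits included. By contrast 46 regions were at −2 or below and 14 at −3 or below. The authors' FDR was under 0.01 for 355 regions.

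The largest falls belonged to regions that were weakly marked to begin with. The median normal concentration in the authors' deposited table was 7.40 for the 282 regions that fell by under 1.25, 7.03 for the 92 that fell by 1.25 to under 1.5, 6.45 for the 69 that fell by 1.5 to under 2 and 5.90 for the 46 that fell by 2 or more. The lowest drought value recurred: 6 members stood at −0.31 in severe drought, the lowest value of that column, and all 6 were among the 8 largest falls. Size of fall and starting level both contain the normal value.

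**Figure D1:**
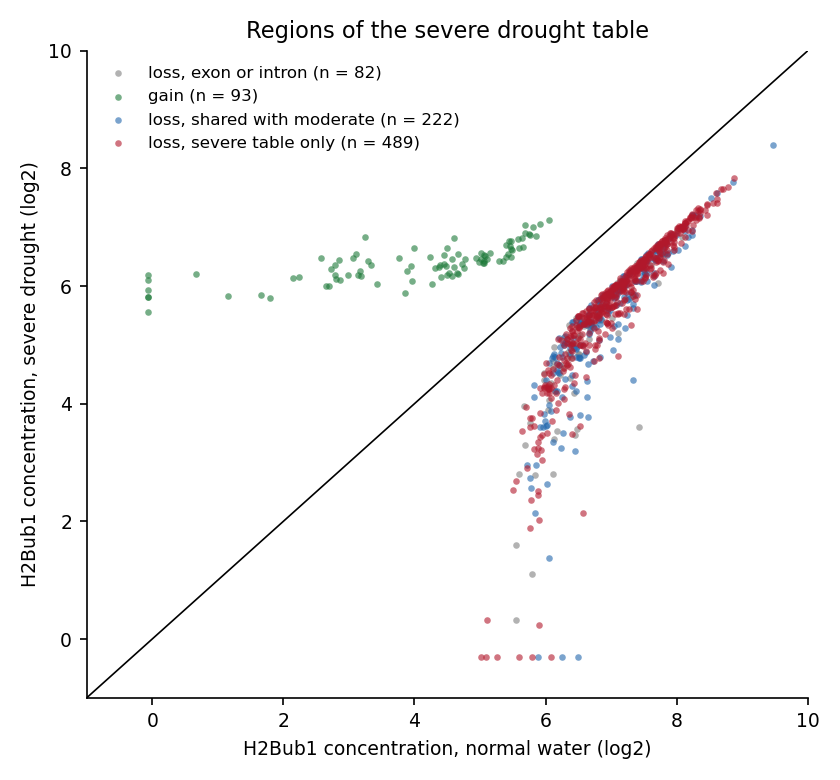
H2Bub1 log2 concentration under normal water (x axis) against severe drought (y axis) for the 886 regions of the authors' deposited severe drought table, with 1 point per region; the line marks equal values. The 489 losses listed in the severe table only (red) and the 222 shared with the moderate table (blue) overlap. Their median changes were −1.2 and −1.315. Both sets lie at least 1 below the line, which is the limit for being listed. Points along the bottom stand at −0.31, the lowest drought value.

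The largest fall was at chromosome 9, 12581278 to 12581777, in LOC_Os09g20900, where the authors' deposited table gives 6.08 under normal water and −0.31 in severe drought. It was followed by a region next to LOC_Os01g45840 (chromosome 1, 26039256 to 26039755, change −6.10) and one upstream of LOC_Os06g48750 (chromosome 6, 29509443 to 29509942, change −5.90) in the same table. The other 5 of the 8 largest falls there belonged to LOC_Os12g01190 (−5.67), LOC_Os11g16530 (−5.57), LOC_Os01g34930 (−5.40), LOC_Os12g02100 (−5.33) and LOC_Os02g49230 (−4.77). These 8 regions started from 5.02 to 6.08. The files do not pair these gene identifiers with names, so no role is given for them.

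At the other end, 8 members stood at −1, among them regions of LOC_Os03g12810, LOC_Os02g39810 and LOC_Os11g05110 in the authors' deposited table. On the other side of the rule's limit of 0, the nearest unshared regions in that table were gains at LOC_Os01g46169 (1.00), LOC_Os08g35930 (1.01) and LOC_Os12g03822 (1.04). Since the table holds nothing between −1 and 1, no region lay close to the limit.

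By the authors' annotation 466 members (95.3%) were promoter regions, 141 of them within 1 kb of a gene start, 242 at 1 to 2 kb and 83 at 2 to 3 kb. A further 13 were distal intergenic, 5 lay downstream and 5 in a 3′ UTR. The word promoter here covers distance from the start on either side. Of the 466, the centre of 425 (91.2%) lay downstream of the gene start, that is, on the transcribed side. Of all 489 regions, each 500 bases wide, 402 (82.2%) lay wholly inside the gene model and 67 had no base in it.

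Members clustered 1 to 2 kb into their genes. The rule itself helps to set this position and the share of promoter regions. It dropped regions annotated as exon or intron, and the promoter label reaches only 3 kb from the start. Of the 82 losses dropped in this way, 25 had their centre inside the gene model nearer its start, and 35 nearer its end. The centre lay at a median of 1536.5 bases downstream of the start, with quartiles of 1025.5 and 2061.5, in genes with a median length of 4344 bases. Between 1000 and 1500 bases there were 122 members and between 1500 and 2000 there were 120, against 12 in the first 500 bases. For 355 members (72.6%) the centre lay inside the gene model and nearer its start than its end. Losses shared with the moderate table had a median of 1642 bases, and gains outside exons and introns 733 bases; the differences were not tested.

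**Figure D2:**
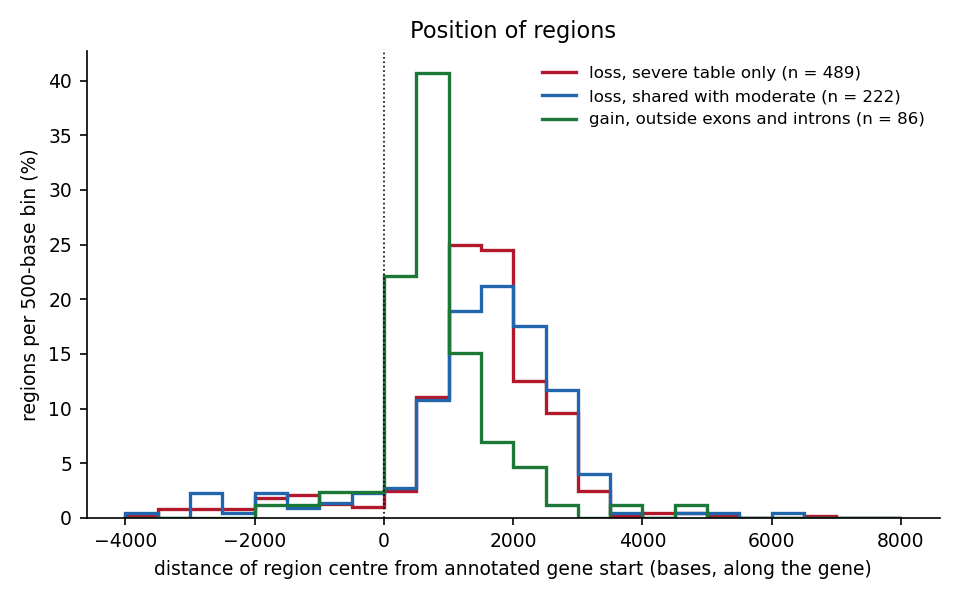
Distance of the region centre from the annotated start of its gene, in bases along the direction of transcription (x axis), and the share of regions in each 500-base bin (y axis). Losses listed in the severe table only peak between 1000 and 2000 bases, shared losses lie at similar distances, and gains outside exons and introns peak nearer the start.

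Members were spread over the genome. Chromosome 3 held 80, chromosome 1 held 77 and chromosome 2 held 57, and the median distance to the next member on the same chromosome was 181879 bases. Only 18 had another member within 10000 bases. A pair of genes had 2 member regions each. In the authors' deposited table LOC_Os02g49230 changed by −4.77 and −3.43 at regions starting at 30095224 and 30096124 on chromosome 2, and LOC_Os11g48020 by −2.64 and −1.08 at regions starting at 28956523 and 28955232 on chromosome 11.

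Absence from the moderate table did not always mean that the gene was absent. Of the 487 genes, 19 had another region in the authors' deposited moderate drought table, and all 19 regions were lower there. The gap between both regions ran from 20 to 8273 bases. At LOC_Os06g48620 the authors' deposited tables list −1.28 in severe drought and, 20 bases further on, −2.15 in moderate drought. At LOC_Os11g16530 they list −5.57 at the distal region in severe drought and −1.14 near the start in moderate drought. Across all members, 14 had a moderate drought region within 1000 bases, and the median distance to the nearest was 61785 bases.

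RNA of the genes was measured independently of the rule. The unit is TPM, transcript abundance per length scaled to the same total in each library. The 9 RNA libraries had 19185 to 20012 of 55986 genes at 1 TPM or more, from an implied 8.30 to 10.7 Gb of aligned bases each. Severe drought replicate 3 stood apart, with a highest correlation of 0.984 with any other library, where each of the others reached at least 0.997 with another. The labels name no tissue for the RNA. The summed level of 4 leaf markers (Rubisco small subunit and antenna genes) was 21035 to 26432 TPM under normal water, 12962 to 13788 in moderate and 5696 to 11744 in severe drought. Of these 4, 3 fell at each drought level, where 18.9% and 20.6% of all tested genes fell. CAB1R was the exception, at 0.06 in moderate and −0.60 in severe drought on the log2 scale, not called. The summed level of 3 root markers was 19.1 to 20.6, 14.0 to 15.6 and 15.7 to 23.3 TPM, most of it from Lsi1. They moved in different directions. Lsi1 fell in moderate drought alone. IRT1, under 2 TPM on average in every condition, fell at both levels, from a mean of 1.65 TPM to 0.27 and 0.15. The remaining marker rose at both, from 0.11 TPM to 2.23 and 2.16. The part of these markers in the results below was not tested, and fewer cells of a type and less RNA per cell cannot be told apart in bulk samples.

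Genes of the members were expressed at moderate levels. Of 487 genes, 473 passed the filter of at least 1 TPM in at least 3 libraries, 14 were under 1 TPM in every library, and 1 passed only through the normal libraries. The 473 tested genes had a median of 17.7 TPM under normal water (quartiles 10.3 and 36.8), against 11.7 TPM over all 20642 tested genes, on a scale that is per transcript length. Across 475 regions with a tested gene, the H2Bub1 concentration under normal water and log2 TPM of the gene had a Spearman rho of 0.29 (Pearson's r of 0.28), given as a description.

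Severe drought against normal water asked how the transcripts of these genes stood where H2Bub1 was lower. More of them rose than fell. In limma, with adjustment over all tested genes, 268 of 473 (56.7%) changed, against 62.7% of all tested genes. Of these, 183 (38.7%) rose, against 42.1% of all genes, and 85 (18.0%) fell, against 20.6%. The counts are thus near or below those of the genome at large. Changes of at least 1 on the log2 scale were found as rises in 40 genes (8.46%, against 13.8% of all genes) and falls in 19 (4.02%, against 7.93%). The median change was 0.17 on the log2(TPM + 1) scale, and 0.22 over all genes. Severe and normal libraries did not overlap in 295 member genes (62.4%), against 68.6% of all genes.

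The excess of rises depended on how the libraries were scaled. Quantile normalization moved the median of all genes from 0.22 to −0.01 in severe drought, and then 103 members rose (21.8%, against 28.6% of all genes) and 154 fell (32.6%, against 30.6%). Median-of-ratios scaling moved it to 0.02, with 109 members higher (23.0%, against 30.1%) and 144 lower (30.4%, against 29.6%). Relative to the median of all genes, the members' median was −0.05 as deposited, −0.07 with quantile normalized values and −0.05 with median-of-ratios scaling. Without the filter on low values it was 0.15 above: 39032 genes were then compared, their median was 0.01, and that of the members was 0.16. In moderate drought the members' median was −0.03 relative to all genes as deposited and 0.15 without the filter. Without severe drought replicate 3, 203 rose (42.9%, against 44.4%) and 102 fell (21.6%, against 22.5%).

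At moderate drought, where these regions are not listed as losing H2Bub1, the counts were close to those at severe drought. In limma 254 of 473 genes changed (53.7%, against 58.3% of all genes), 178 higher (37.6%, against 39.4%) and 76 lower (16.1%, against 18.9%). The median change was 0.18, and 0.20 over all genes. Libraries did not overlap in 328 genes (69.3%, against 73.1%). Quantile normalization gave 109 higher (23.0%, against 27.6%) and 134 lower (28.3%, against 28%), and median-of-ratios scaling 113 higher (23.9%, against 27.8%) and 128 lower (27.1%, against 28.2%). The medians of all genes were then both −0.01.

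RNA in severe drought was also compared with moderate drought directly, a contrast that the rule did not use. In limma none of the 473 genes passed the threshold (lowest adjusted p = 0.207), and 3 of 20642 genes in all did (0.0145%). At an unadjusted p under 0.05 there were 63 members (13.3%), against 12.5% of all genes. Libraries of both drought levels did not overlap in 100 members (21.1%), against 20.4%. The median change between drought levels was −0.005 among members and −0.002 over all genes. Without severe drought replicate 3 the count of members stayed at 0, with a lowest adjusted p of 0.0690 in limma. Over all 20642 genes 6 rose and 5 fell in that fit. An unadjusted p under 0.05 was reached there by 74 members (15.6%), and the share of all genes was not computed.

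Taken gene by gene, each drought level with its own test, 153 members rose at both levels (32.3%, against 35.5% of all tested genes) and 70 fell at both (14.8%, against 16.9%). In severe drought alone 30 rose (6.34%, against 6.6%) and 15 fell (3.17%, against 3.72%). In moderate drought alone 25 rose (5.29%, against 3.91%) and 6 fell (1.27%, against 2.03%), and no member moved in opposite directions. None of the 45 genes called in severe drought alone was called between severe and moderate drought. Both levels were compared with the same normal libraries, so these counts are not independent.

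Size of the H2Bub1 loss was set beside the RNA changes as a description. Across 475 regions the Spearman rho between the H2Bub1 change and the RNA change was 0.0068 in severe drought against normal water (Pearson's r of 0.091) and −0.045 in moderate drought (r of 0.078). For severe against moderate drought rho was 0.17 (r of 0.042), and 0.15 to 0.17 with 1 library left out. The median RNA change between drought levels was 0.02 for genes of regions that fell by under 1.25, −0.03 at 1.25 to under 1.5, −0.07 at 1.5 to under 2 and −0.07 at 2 or more. All regions share the same libraries. Among the 46 regions with a fall of 2 or more, 44 had a tested gene, and 13 of these rose (29.5%, against 42.1% of all tested genes) and 11 fell (25%, against 20.6%) in severe drought. Among the 282 with a fall under 1.25, 278 had one, of which 109 rose (39.2%) and 43 fell (15.5%). By position, 60 rose (42.9%) and 25 fell (17.9%) of 140 for promoter regions within 1 kb, near the shares of all genes. At 1 to 2 kb 97 rose (40.6%) and 35 fell (14.6%) of 239, and at 2 to 3 kb 24 rose (30.8%) and 21 fell (26.9%) of 78. After quantile normalization, with 28.6% of all genes higher and 30.6% lower, the shares were 26.4% and 30.0% within 1 kb, 22.6% and 28.5% at 1 to 2 kb, and 15.4% and 44.9% at 2 to 3 kb. These splits were not tested against each other.

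Losses that shared a base with the moderate table stood beside different counts. Of their 215 tested genes, 26 rose (12.1%, against 42.1% of all tested genes) and 112 fell (52.1%, against 20.6%) in severe drought, and their median change was −0.38. In moderate drought 31 rose (14.4%, against 39.4%) and 98 fell (45.6%, against 18.9%), with a median of −0.28. After quantile normalization 14 rose (6.51%, against 28.6%) and 139 fell (64.7%, against 30.6%) in severe drought, and without severe drought replicate 3 the counts were 32 (14.9%, against 44.4%) and 117 (54.4%, against 22.5%). Both sets have 2 genes in common, and the difference between them was not tested.

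**Figure D3:**
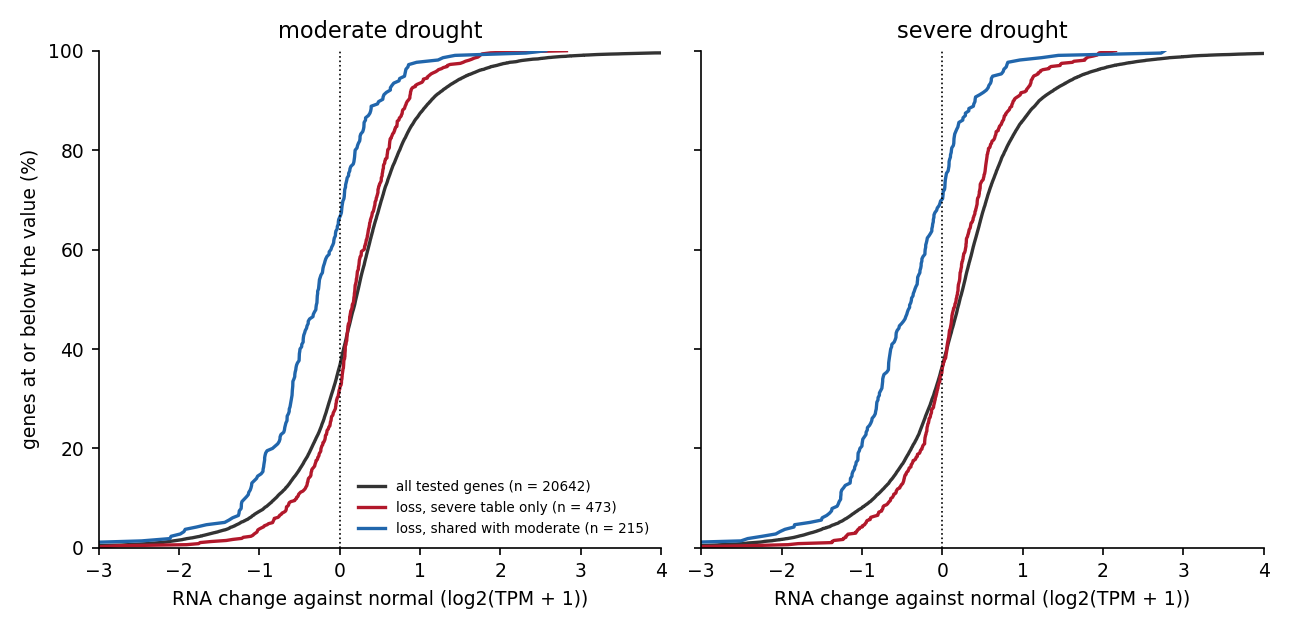
RNA change against normal water in log2(TPM + 1) (x axis, shown from −3 to 4) and the share of genes at or below it (y axis), for moderate drought (left) and severe drought (right). Genes of losses listed in the severe table only (red, 473 genes) follow all 20642 tested genes (black) closely and more narrowly, while genes of shared losses (blue, 215 genes) lie to the left, at lower values.

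HUB2, entered in the gene list for LOC_Os10g41590 (chromosome 10), was itself a member. It encodes a ligase that places the mark. In the authors' deposited table the region at 22390681 to 22391180, in the gene body, went from 8.06 to 7.01, a change of −1.05. Its RNA stood at 55.0, 53.6 and 58.4 TPM under normal water, at 45.0, 43.3 and 49.4 TPM in moderate drought and at 38.1, 39.1 and 42.8 TPM in severe drought. The 3 groups did not overlap, with normal highest and severe lowest. In limma the RNA fell by 0.47 ± 0.08 (SE, n = 3 and 3) on the log2 scale in severe drought (adjusted p = 0.00126). In moderate drought it fell by 0.27 ± 0.08 (adjusted p = 0.0194 in limma), a call lost when normal replicate 3 was left out (adjusted p = 0.0602), and likewise moderate replicate 1 (0.0645) or 2 (0.0679). The fall was larger after quantile normalization, at −0.47 in moderate and −0.71 in severe drought. Median-of-ratios scaling gave −0.50 in moderate drought, and its value for severe drought is not printed here. Severe against moderate drought gave −0.19 ± 0.08 (adjusted p = 0.394 in limma). HUB1, its partner, was no member and is listed in neither drought table; its RNA was 49.6 TPM ± 5.02 (SD, n = 3), 47.7 ± 4.67 and 43.3 ± 2.14, with an adjusted p in limma of 0.670 in moderate and 0.134 in severe drought.

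A pair of clade A PP2C genes lost H2Bub1 while their RNA stood higher. PP2C06, entered for LOC_Os01g40094 (chromosome 1, region 22619358 to 22619857), is in the authors' deposited table at 8.29 under normal water and 7.17 in severe drought. Its RNA stood at 68.0, 76.4 and 91.4 TPM under normal water, at 276, 279 and 254 TPM in moderate drought and at 257, 242 and 316 TPM in severe drought. All 6 drought libraries lay above the normal ones, with both drought levels overlapping. The RNA rose by 1.77 ± 0.14 in moderate drought (adjusted p = 1.29e-05 in limma) and by 1.78 ± 0.14 in severe drought (adjusted p = 1.23e-05).

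PP2C08, entered for LOC_Os01g46760 (chromosome 1, region 26655648 to 26656147), went from 7.11 to 5.52 in the authors' deposited table. Its RNA stood at 44.5, 43.8 and 42.6 TPM under normal water, at 62.1, 64.6 and 54.3 TPM in moderate drought and at 60.5, 56.8 and 59.2 TPM in severe drought. Again every drought library lay above the normal ones. The rises were 0.46 ± 0.08 in moderate drought (adjusted p = 0.00150 in limma) and 0.42 ± 0.08 in severe drought (adjusted p = 0.00213). They were smaller under other scalings. Quantile normalized values gave 0.26 (adjusted p = 0.0381) and 0.18 (0.122), and median-of-ratios scaling gave 0.23 (0.0616) and 0.19 (0.0960).

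Of the 9 listed clade A PP2C genes, 8 rose at each drought level and none fell, whether or not they were members; PP2C53 was the exception. The medians of that list were 1.91 in moderate and 1.96 in severe drought. The 3 listed ABA-related bZIP genes (bZIP23, TRAB1 and ABF1) rose at both levels, and bZIP46 did too. Of 7 drought effector genes, which include RAB16 dehydrins and LEA3-1, 6 were tested, and 5 rose in moderate and 6 in severe drought. The summed level of the 7 effectors ran from 636 to 6467 TPM over the severe libraries, highest in replicate 3. Among all tested genes 39.4% rose in moderate and 42.1% in severe drought. None of these bZIP or effector genes was a member. Outside the rule, bZIP23 was listed with 1 H2Bub1 region at each drought level, and PP2C30 and PP2C51 with 1 each in moderate drought alone. The direction of these changes is not printed here.

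**Figure D4:**
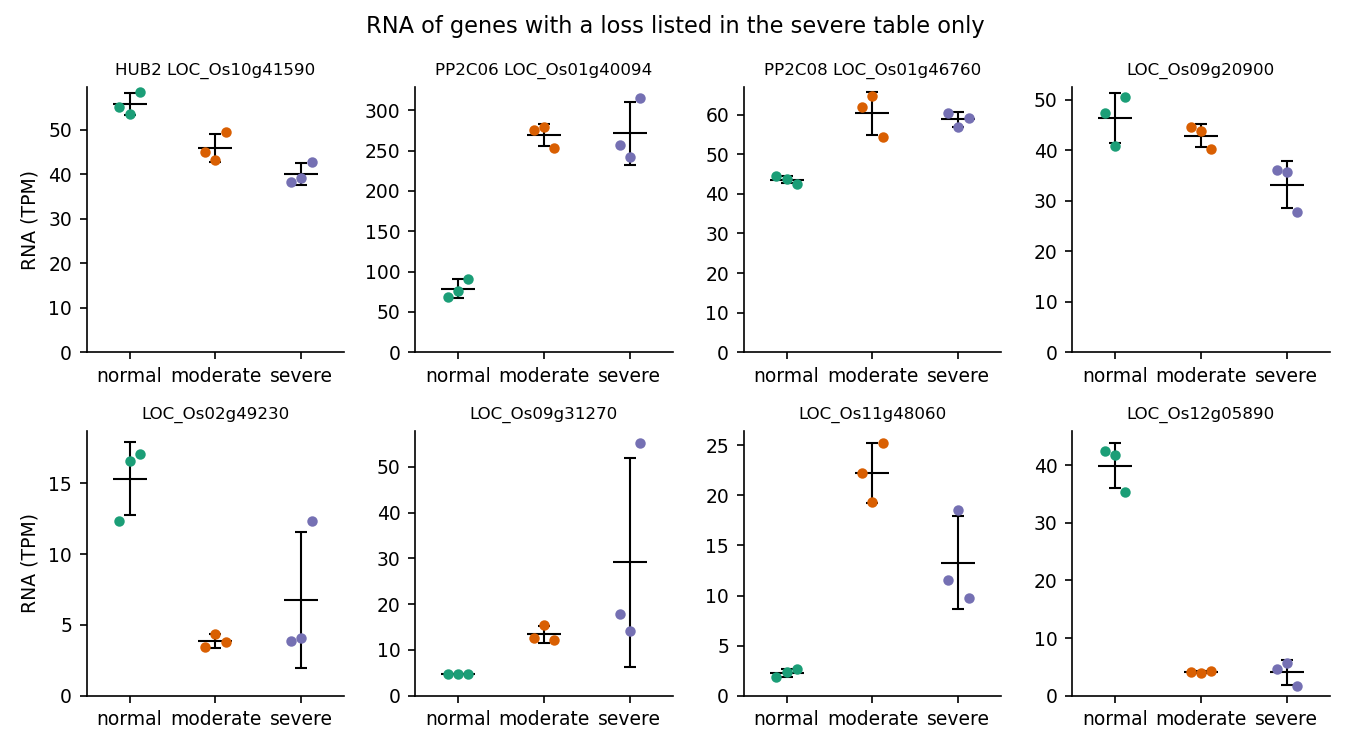
RNA in TPM (y axis, from 0) in each of the 3 libraries per condition (points) for 8 genes with a loss listed in the severe table only, with bars for the mean and SD. HUB2 steps down from normal to severe drought, PP2C06 and PP2C08 stand higher at both drought levels, and in the panels of LOC_Os02g49230 and LOC_Os09g31270 one severe library lies far above the other two.

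Among member genes the largest rises in severe drought were at genes that had also risen in moderate drought. LOC_Os09g31270 (chromosome 9, region 18802390 to 18802889, H2Bub1 change −1.69 in the authors' deposited table) stood at 4.64, 4.72 and 4.67 TPM under normal water, at 12.5, 15.5 and 12.2 TPM in moderate drought and at 17.9, 14.2 and 55.3 TPM in severe drought. The highest value is that of severe replicate 3. Its RNA rose by 2.15 ± 0.41 in severe drought (adjusted p = 0.00191 in limma). In moderate drought it rose by 1.34 ± 0.41 (adjusted p = 0.0208 in limma), a call lost without any 1 of the 3 normal replicates (adjusted p of 0.0524 to 0.0543) or moderate replicate 2 (0.0664).

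LOC_Os11g48060 (chromosome 11, region 28975828 to 28976327, H2Bub1 change −1.36 in the authors' deposited table) stood at 1.89, 2.32 and 2.65 TPM under normal water, at 22.2, 19.3 and 25.3 TPM in moderate drought and at 11.5, 18.6 and 9.78 TPM in severe drought. Moderate drought was highest and its libraries did not overlap with severe ones, though the adjusted p between both was 0.287 in limma. The RNA rose by 2.82 ± 0.21 in moderate drought and by 2.08 ± 0.21 in severe drought (adjusted p of 1.25e-05 and 6.11e-05 in limma). Over the 8 largest severe rises the change was 1.79 to 2.15, all 8 had risen in moderate drought too, and their H2Bub1 changes in the authors' deposited table were −2.17 to −1.05. These genes were picked by their change in severe drought, and both levels share the normal libraries, so a rise at both is partly built in. Over all 20642 tested genes, 8687 rose in severe drought and 7324 rose at both levels.

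The largest fall in severe drought was at LOC_Os12g05890, whose region lies upstream of the gene (chromosome 12, 2709713 to 2710212, H2Bub1 change −1.60 in the authors' deposited table). Its RNA stood at 42.5, 41.9 and 35.4 TPM under normal water, at 4.14, 3.98 and 4.23 TPM in moderate drought and at 4.67, 5.75 and 1.69 TPM in severe drought. All 6 drought libraries lay far below the normal ones. The RNA fell by 3.00 ± 0.29 in moderate drought and fell by 3.12 ± 0.29 in severe drought (adjusted p of 4.84e-05 and 3.88e-05 in limma). LOC_Os04g09540 (H2Bub1 change −1.02 in the authors' deposited table) fell by 2.75 ± 0.27 and 2.44 ± 0.27, from 23.9, 13.2 and 17.2 TPM to 2.09, 1.47 and 1.79 and to 2.08, 1.63 and 3.99 TPM. Over the 8 largest severe falls the change was −3.12 to −1.23, and all 8 had fallen in moderate drought. These too were picked by their change in severe drought against the shared normal libraries. Over all tested genes, 4255 fell in severe drought and 3486 fell at both levels.

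The 8 genes assigned to the deepest H2Bub1 losses, some of which lay outside the gene model, did not share a direction in RNA. In severe drought 4 fell, 1 rose and 3 were not called in limma, where 20.6% of all tested genes fell and 42.1% rose. LOC_Os09g20900, with the deepest loss, stood at 47.4, 41.0 and 50.7 TPM under normal water, at 44.6, 43.8 and 40.3 TPM in moderate drought and at 36.1, 35.8 and 27.8 TPM in severe drought. Severe libraries lay below all the others, and moderate and normal ones overlapped. Its RNA fell by 0.47 ± 0.12 in severe drought (adjusted p = 0.00860 in limma; −0.72 after quantile normalization), was at −0.11 ± 0.12 in moderate drought (adjusted p = 0.485) and differed by −0.37 ± 0.12 between both levels (adjusted p = 0.335).

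LOC_Os02g49230, the gene with 2 deep losses, stood at 12.4, 16.6 and 17.1 TPM under normal water, at 3.43, 4.37 and 3.81 TPM in moderate drought and at 3.83, 4.10 and 12.3 TPM in severe drought. A gene model on the other strand overlaps it, and the sources used here do not say whether counting used strand. The RNA fell by 1.74 ± 0.35 in moderate drought and by 1.23 ± 0.35 in severe drought (adjusted p of 0.00267 and 0.0139 in limma), and the severe libraries split with replicate 3 near the normal level. LOC_Os01g45840 fell by 0.97 ± 0.19 and LOC_Os11g16530 by 1.2 ± 0.14 in severe drought. LOC_Os12g02100 rose by 0.44 ± 0.14 (adjusted p = 0.0217 in limma), at 0.27 without severe replicate 3. That call was lost with quantile normalized values (0.19, adjusted p = 0.209), with median-of-ratios scaling (0.23, 0.166), in the fit of 6 libraries (0.0511) and without normal replicate 1 (0.0595) or 2 (0.0560). LOC_Os06g48750, LOC_Os12g01190 and LOC_Os01g34930 were at 0.46 ± 0.37, 0.05 ± 0.10 and −0.15 ± 0.11, not called. The value of LOC_Os06g48750 ran from 0.08 without normal replicate 1 to 0.71 without normal replicate 3, and was 0.21 with quantile normalized values and 0.23 with median-of-ratios scaling. That of LOC_Os12g01190 turned to −0.20 with quantile normalized values, to −0.18 with median-of-ratios scaling and to −0.04 without severe replicate 3. LOC_Os01g34930 passed the threshold as lower under both scalings, at −0.39 with quantile normalized values (adjusted p = 0.01001 in limma) and at −0.36 with median-of-ratios scaling (0.0143). LOC_Os11g48020, the other gene with 2 member regions, rose by 0.59 ± 0.10 in moderate and 0.53 ± 0.10 in severe drought, or by 0.39 and 0.29 with quantile normalized values and by 0.36 and 0.30 with median-of-ratios scaling.

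The 19 genes with a further region in the moderate table were all tested. In severe drought 3 rose (15.8%, against 42.1% of all tested genes) and 8 fell (42.1%, against 20.6%), with a median change of −0.20. In moderate drought 1 rose (5.26%, against 39.4%) and 6 fell (31.6%, against 18.9%), with a median of −0.21. After quantile normalization 0 rose and 10 fell (52.6%) in severe drought, where 28.6% of all tested genes rose and 30.6% fell. In moderate drought 1 then rose (5.26%, against 27.6%) and 9 fell (47.4%, against 28.0%). LOC_Os06g48620 stood at 36.6, 34.4 and 41.5 TPM under normal water, at 18.7, 18.1 and 20.0 TPM in moderate drought and at 14.3, 15.6 and 11.8 TPM in severe drought. Its groups did not overlap, and the fall was 1.37 ± 0.11 in severe drought (adjusted p = 1.89e-05 in limma).

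Overlap with the osbzip46 comparisons was sparse. These come from other samples than the rule used. Of 489 members, 2 (0.409%) shared a base with a region of the authors' deposited table of osbzip46 mutant against wild type under drought, against 1.35% of all regions in the severe drought table, members included. Of the 222 losses shared with the moderate table, 1 (0.45%) did. The region at LOC_Os05g15140 was higher in the mutant by 1.38 and that at LOC_Os07g46170 lower by 1.16 on the log2 scale in the authors' deposited table, with FDR of 0.389 and 0.825, so neither passed 0.05. That table lists 522 regions, 432 of them higher in the mutant, and 9 with an FDR under 0.05.

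The authors' deposited table of genes with changed H2Bub1 in the mutant, in which all entries are lower, held 28 of the 487 member genes (5.75%), against 4.49% of the genes of all severe drought regions. That background includes the members, which supply 28 of its 39 listed genes. Among the genes of shared losses 5 of 220 (2.27%) were listed, and the difference was not tested. In that table H2Bub1 of these 28 genes changed by −2.64 to −1.01, with a median of −1.32, and 4 are marked there as OsbZIP46 targets. The values used from it include a p-value per gene but no FDR. All its genes are lower in the mutant, whereas most of the listed osbzip46 regions are higher. The sources used here do not say how both listings relate. Of the 28 genes, 27 were tested for RNA: 14 rose (51.9%, against 42.1% of all tested genes), 4 fell (14.8%, against 20.6%) and 9 were not called in severe drought. In moderate drought 13 rose (48.1%, against 39.4%), 4 fell (14.8%, against 18.9%) and 10 were not called. After quantile normalization 10 rose (37.0%) in severe and moderate drought alike, against 28.6% and 27.6% of all genes. Falls then numbered 4 in severe drought (14.8%, against 30.6%) and 5 in moderate drought (18.5%, against 28.0%). Of the 4 marked targets, LOC_Os12g08260 rose from 80.2 to 203 TPM in moderate and 225 TPM in severe drought, by 1.34 and 1.47 on the log2 scale. LOC_Os03g54240 fell by 0.35 and 0.49, while LOC_Os03g04920 and LOC_Os07g29640 were not called at either level.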

How the data were processed

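H2Bub1 values are those of the authors' deposited comparison tables, with log2 concentrations per condition, log2 fold changes, p-values and FDR, per the file headers. The caller, its settings and the genome build are not given in the sources used here. Among tools, Bowtie2 2.3.4, MACS2 2.1.1, HISAT2 2.0.5 and DESeq2 1.20.0 are named without a role in the submitters' processing notes. RNA came from deposited tables of TPM, FPKM and coverage (signal) per gene, per the file headers. TPM were tested. The highest ratio of coverage to FPKM over the genes of a library was taken as its implied aligned bases.

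Values were analysed as log2(TPM + 1), which understates changes of low genes. The 20642 genes that reached 1 TPM in 3 or more libraries entered 1 fit of all 9 libraries in limma 3.58.1 under R 4.3.3 (lmFit, then eBayes with a trend and robust estimates). Tests were two-sided, and the threshold was 0.05 for p adjusted by Benjamini-Hochberg across those genes. Rose, fell and changed refer to that threshold. Replicate numbers did not pair the samples.

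The members and lists were chosen with earlier results of these data known. Named were the 8 largest H2Bub1 falls, regions at the rule's limit, regions shared with osbzip46 tables, genes with 2 regions, listed genes, and the largest RNA changes (mean of at least 5 TPM, no overlap), of which a few are printed because the files pair no names with identifiers. Promoter letters could not be searched, and no sequence is shown.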

Additional observations from a re-analysis of the deposited data

How the results depend on the processing

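Counts of rises and falls among the members moved by over 1.5 times under both other scalings. In moderate drought the members that rose numbered 109 after quantile normalization and 113 after median-of-ratios scaling, against 178, and those that fell 134 and 128, against 76. Of all tested genes 27.6% and 27.8% rose under these scalings, against 39.4%, and 28% and 28.2% fell, against 18.9%. In severe drought the rises were 103 and 109, against 183, and the falls 154 and 144, against 85. Of all tested genes 28.6% and 30.1% rose there, against 42.1%, and 30.6% and 29.6% fell, against 20.6%. The members' median change was then −0.050 and −0.042 in moderate drought, −0.079 and −0.037 in severe drought and, with quantile normalized values, −0.035 between drought levels. In moderate drought it was 0.19 with a pseudocount of 0.1 TPM, 0.16 without a filter, 0.18 with promoter regions only and 0.19 without genes of the moderate table. With 1 library left out it ran from 0.15 to 0.20 in moderate drought, from 0.15 to 0.19 in severe drought and from −0.038 to 0.0035 between drought levels. Counting by gene identifier put 12 members in the osbzip46 region table, against 2 by shared bases. LOC_Os12g01190 turned from 0.05 to −0.20 with quantile normalized values and to −0.18 with median-of-ratios scaling, and ran from −0.045 (without severe drought replicate 3) to 0.11 with 1 library left out, uncalled throughout; the cause was not tested. Of 810 alternative values for named genes, 787 kept their direction and call. Replicate numbers did not pair the samples (correlations of −0.257 to 0.143), and a replicate block gave 247 changed members of 473 in moderate drought, 260 in severe drought and 0 between both. Over all 20642 tested genes the block gave 7965 rises and 3816 falls in moderate drought. In severe drought it gave 8530 and 4151, and between both levels 1 and 0. Read counts were not used, so depth per gene is unknown, and H2Bub1 values have no replicate error. The description of promoter letters was not run, for want of a promoter table.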
